A study of Mus musculus with 9 samples.

Results

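The genes Id1, Id2 and Id3 encode inhibitors of DNA binding, small helix-loop-helix repressors, and their RNA was followed in sorted mouse lung tumour cells that had been grown as spheroids. They were taken by symbol from the deposited values, in which they are 3 of 12339 genes, and all 3 passed the filter on low values. The fourth gene of the family, Id4, had no row in the table used here. The 9 libraries fall into 3 groups of 3. In the first, KP-GFP tumour cells of C57BL/6 origin were grown with lung TRMs, which are tissue-resident alveolar macrophages. In the second they were grown with bone-marrow monocytes, and in the third they were grown alone. Each spheroid was set up with 2500 tumour cells, alone or with 5000 added macrophages or monocytes, and cultured for 7 days. The GFP-positive tumour cells of 32 pooled spheroids were sorted, so each library is a bulk measurement of pooled spheroids of the KP-GFP line. The labels do not say whether replicates were separate cultures, so the p-values given below for other genes measure only the spread between these samples. The genes were chosen by their levels in the same 3 groups, with earlier results of these data known, so their levels and differences are given as a description, without a test.

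ID proteins carry the helix-loop-helix dimerisation domain of the basic helix-loop-helix (bHLH) transcription factors but lack the basic stretch that contacts DNA. They pair with the widely expressed E proteins, the products of Tcf3, Tcf4 and Tcf12, and the resulting dimers cannot bind E-box sequences. Id genes are classic immediate targets of bone morphogenetic protein (BMP) signalling through SMAD1 and SMAD5. In epithelial and tumour cells they are generally high in proliferating, undifferentiated states and low after differentiation.

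The dimerisation domain is also where the genes are most alike, and its coding sequence is shown because it decides whether reads of the 3 genes can be told apart. The aligned stretch is 123 bases long and lies in exon 1 of each gene (mm10, GENCODE M21). It covers chr2:152736515-152736637 on the plus strand for Id1, chr12:25095783-25095905 on the minus strand for Id2 and chr4:136143999-136144121 on the plus strand for Id3. Capitals mark the 78 bases (63.4%) that are identical in all 3 genes.
Id1: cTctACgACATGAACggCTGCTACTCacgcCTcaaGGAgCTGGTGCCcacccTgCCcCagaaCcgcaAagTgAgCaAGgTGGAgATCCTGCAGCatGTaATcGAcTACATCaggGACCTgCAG
Id2: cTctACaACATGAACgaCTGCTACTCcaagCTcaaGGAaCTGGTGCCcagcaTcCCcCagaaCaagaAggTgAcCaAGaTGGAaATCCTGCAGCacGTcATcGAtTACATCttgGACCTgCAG
Id3: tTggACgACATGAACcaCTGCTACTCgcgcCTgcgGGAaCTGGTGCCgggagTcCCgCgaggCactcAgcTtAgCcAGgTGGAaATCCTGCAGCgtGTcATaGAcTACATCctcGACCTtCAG

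Within this stretch Id1 and Id2 were identical at 101 bases (82.1%). Id1 and Id3 shared 86 (69.9%) and Id2 and Id3 shared 87 (70.7%). The longest run of coding bases common to a pair was 11 for Id1 with Id2, 11 for Id1 with Id3 and 15 for Id2 with Id3. No stretch of 50 bases was shared between the members. Of all 50-base stretches in their exons, Id1 shared 0 of 1157 with any other annotated gene, Id2 shared 8 of 2433 (0.329%, with Gm6175) and Id3 shared 0 of 1741. The genes lie at chr2:152736251-152737410 (Id1, plus strand), chr12:25093799-25097140 (Id2, minus strand) and chr4:136143497-136145755 (Id3, plus strand), and 0 annotated genes overlap any of them on either strand.

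Id3 was several-fold higher in tumour cells from both co-cultures than in tumour cells grown alone, Id1 was higher by a smaller factor, and Id2 was at nearly the same level in all 3 groups. All 3 were measured with many reads, 397 or more in every library. Levels here are CPM, read counts scaled to a common library size with TMM factors, with 0.5 read added to each count by the authors. Library depths were 16001895 to 25240220 reads with TRMs, 18381707 to 24037053 with monocytes and 21341370 to 32771448 alone. In these bulk samples, fewer cells carrying a transcript and less of it per cell cannot be told apart.

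Id3, which restrains E proteins in many lymphoid and epithelial lineages, had 189, 297 and 256 CPM in the 3 TRM co-culture libraries. The monocyte co-culture libraries had 351, 424 and 257 CPM, and the libraries of tumour cells alone had 34.6, 78.9 and 62.9 CPM. Every co-culture library was above every library grown alone, and the lowest co-culture value, in TRM replicate 1, was still well above the highest value alone. The TRM and monocyte libraries overlapped, since monocyte replicate 3 fell among the TRM values. Means were 247 ± 54.6 CPM with TRMs, 344 ± 83.6 with monocytes and 58.8 ± 22.4 alone (SD, n = 3 each). Folds here and for all other genes are taken from mean log2 levels, not from the mean CPM. On this scale Id3 was 4.37-fold higher with TRMs than alone, a log2 difference of 2.13 with a standard error of 0.27. With monocytes it was 6.06-fold higher than alone, a log2 difference of 2.60 (SE 0.27). Between the co-cultures Id3 was 1.39-fold lower with TRMs than with monocytes, a log2 difference of -0.47 (SE 0.27).

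Id1, the member best known as a direct BMP target, had 47.6, 38.6 and 36.1 CPM with TRMs. It had 57.9, 60.0 and 52.7 CPM with monocytes, and 17.7, 26.6 and 17.3 CPM alone. The 3 groups did not overlap, with monocyte co-cultures on top, TRM co-cultures between and tumour cells alone at the bottom. Means were 40.7 ± 6.06 CPM with TRMs, 56.9 ± 3.75 CPM with monocytes and 20.5 ± 5.23 CPM alone (SD, n = 3 each). From mean log2 levels, Id1 was 2.01-fold higher with TRMs and 2.82-fold higher with monocytes than alone, log2 differences of 1.01 and 1.50 (SE 0.19 each). Relative to monocyte co-cultures, Id1 was 1.40-fold lower with TRMs, a log2 difference of -0.49 (SE 0.19).

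Id2, a member with roles in neural and lymphoid development, had 158, 119 and 116 CPM with TRMs. The monocyte libraries had 155, 154 and 149 CPM, and the libraries alone had 132, 122 and 115 CPM. TRM replicate 1 was the highest of all 9, while the other TRM libraries lay inside the range of cells alone. Means were 131 ± 23.2 CPM with TRMs, 153 ± 3.24 with monocytes and 123 ± 8.59 alone (SD, n = 3 each). The log2 difference from cells alone was 0.08 with TRMs and 0.32 with monocytes (SE 0.14 each), 1.06-fold and 1.24-fold. The TRM value rests on TRM replicate 1: without that library the log2 difference was -0.06, and with library totals in place of TMM scaling it was -0.01.

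**Figure D1:**
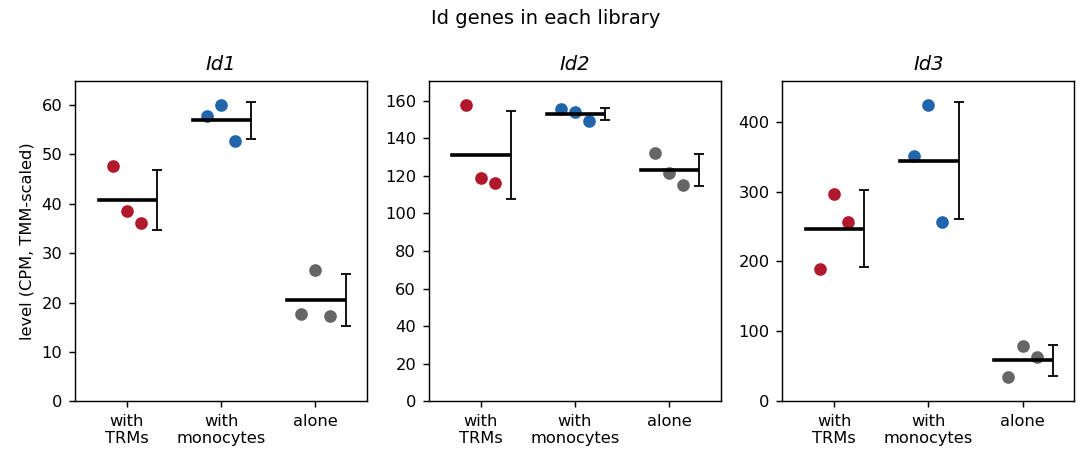
Level of Id1, Id2 and Id3 in TMM-scaled CPM (vertical axis, linear and starting at 0) in each of the 9 libraries, with tumour cells from TRM co-cultures on the left, from monocyte co-cultures in the middle and grown alone on the right. Points are libraries, thick lines are group means and error bars are 1 SD: the Id3 points of both co-cultures, from 189 to 424 CPM, all lie above those of cells alone, from 34.6 to 78.9 CPM, while the Id2 points lie between 115 and 158 CPM in every group.

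With TRMs, 2 of the 3 genes, Id1 and Id3, lay above cells alone without overlap, a relation that 20.8% of all tested genes showed. With monocytes all 3 lay above cells alone, against 21.3% of tested genes. Id1 lay below monocyte co-cultures in TRM co-cultures, as did 8.62% of tested genes, while Id2 and Id3 overlapped between the co-cultures. Both comparisons with cells alone share the same 3 control libraries. The authors' deposited table of their own TRM comparison gives log2 fold changes of 0.96 for Id1, 0.07 for Id2 and 2.05 for Id3. The authors' deposited table for monocytes gives 1.44, 0.29 and 2.53 for the same genes.

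The members also differed in how steady they were within a group. The pooled within-group SD on the log2 scale was 0.15 for Id2, 0.24 for Id1 and 0.45 for Id3. Id1 and Id3 were both highest in replicate 2 among the libraries of cells alone, but among the TRM libraries replicate 1 was the highest for Id1 and the lowest for Id3. When each gene was centred on its mean over the 9 libraries, the root mean square distance between profiles was 0.54 for Id1 and Id2, 0.63 for Id1 and Id3 and 1.12 for Id2 and Id3 on the log2 scale. When all tested genes were ranked by closeness to Id1, Id2 came at place 2177 and Id3 at place 3961, and when they were ranked by closeness to Id2, Id3 came at place 11135. This distance counts the size of differences as well as their direction. It therefore does not show that the pattern of Id1 resembles that of Id2 more than that of Id3.

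Levels of different genes were compared per kilobase of exon, since longer genes collect more reads. Exon length here covers the exons of all protein-coding transcripts of a gene. Exons found only in other transcripts were left out. For Id3 this gave 1.278 kb, although its transcripts of all types held 1741 different 50-base stretches. Counting every exon would thus lower the level of Id3 per kilobase. Per kilobase of exon, Id3 led the family in both co-cultures, at 193 CPM per kb with TRMs and 269 with monocytes, against 46.0 alone. Id2 came to 53.7 CPM per kb with TRMs, 62.7 with monocytes and 50.5 alone. Id1 came to 35.1 CPM per kb with TRMs, 49.0 with monocytes and 17.7 alone. In cells alone the order was Id2, Id3, Id1, and the ranges of Id2 (47.3 to 54.2 CPM per kb) and Id3 (27.1 to 61.7 CPM per kb) overlapped. Ranked on this scale among all genes matched to an annotation, Id3 was at percentile 98.4 with TRMs, 99.0 with monocytes and 89.0 alone. Id2 was at percentile 90.1 with TRMs, 91.7 with monocytes and 90.2 alone, and Id1 at 83.1 with TRMs, 88.5 with monocytes and 68.1 alone.

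Summed per kilobase, the 3 transcripts reached 282 ± 30.6 CPM per kb with TRMs, 381 ± 69.7 with monocytes and 114 ± 19.1 alone (SD, n = 3 each). Id3 made up 58.3%, 73.9% and 71.8% of this pool in the TRM libraries and 70.7%, 74.3% and 65.3% in the monocyte libraries. In the libraries of cells alone it made up 28.1%, 45.9% and 44.2%. Per kilobase of exon, most of the pool was thus Id3 with either myeloid partner, and in cells alone Id2 averaged 45.2% and Id3 39.4%. Id1 held 12.6% with TRMs, 13.1% with monocytes and 15.4% alone. These shares depend on transcript length. Next, the shortest coding transcript of each gene was used in place of the exons of all its coding transcripts. The mean Id3 share was then 51.5% with TRMs, 54.4% with monocytes and 23.1% alone, again without overlap between co-cultures and cells alone. On that length the mean Id2 share was 36.7% with TRMs, 33.0% with monocytes and 65.8% alone, so in cells alone Id2 was then well above Id3. In TRM replicate 1 Id2 was then also above Id3, at 45.3% against 40.6%. Id3 was 48.7% in monocyte replicate 3, so in these libraries it was not most of the pool.

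**Figure D2:**
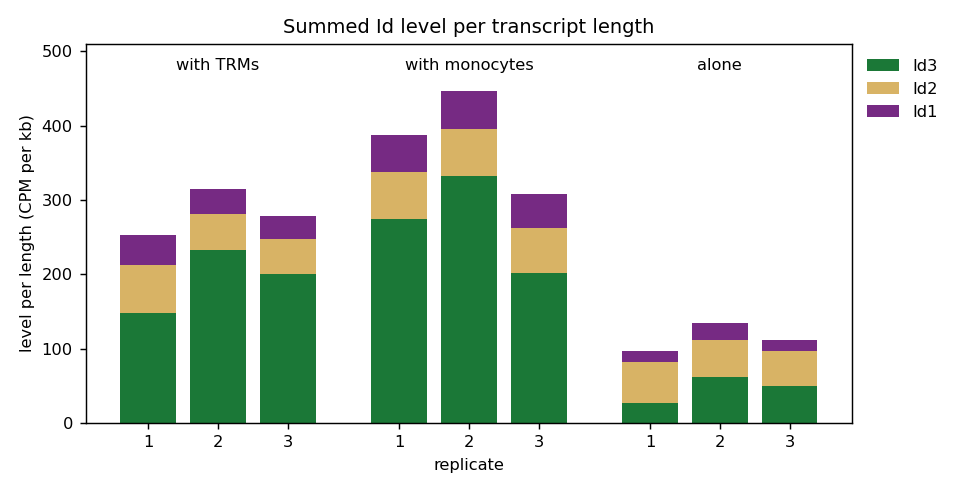
Summed Id level in CPM per kilobase of exon (vertical axis), stacked by gene with Id3 at the bottom, in each of the 9 libraries, in the order TRM co-culture, monocyte co-culture, alone. The pool of the co-culture libraries is larger, from 253 to 447 CPM per kb against 96.6 to 135 alone, and most of the added height is Id3.

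E proteins are the main partners that ID proteins sequester, and on this list Tcf3 rose in both co-cultures. Tcf3, which encodes E12 and E47, averaged 340 ± 29.4 CPM with TRMs, 382 ± 116 with monocytes and 229 ± 4.44 alone (SD, n = 3 each). It was 1.48-fold higher with TRMs (limma adjusted p = 0.0383) and 1.62-fold higher with monocytes (limma adjusted p = 0.0101). The TRM call was lost without any 1 of the 6 libraries compared. Leaving out single libraries gave a limma adjusted p of 0.0623, 0.149 and 0.0738 without TRM replicate 1, 2 and 3, and 0.0901, 0.0846 and 0.0997 without alone replicate 1, 2 and 3. The other E-protein genes did not pass. Tcf4 averaged 22.2 CPM with TRMs, 20.6 with monocytes and 24.5 alone and Tcf12 38.8 CPM with TRMs, 35.0 with monocytes and 34.2 alone.

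The ratio of the Id pool to the E-protein pool, both per kilobase of exon, was 2.56, 2.76 and 2.79 with TRMs, 2.53, 4.31 and 3.41 with monocytes, and 1.32, 1.94 and 1.53 alone. The co-culture libraries lay above those of cells alone without overlap, although Tcf3 RNA was itself higher in them. With the shortest coding transcripts the mean ratios were 0.414 with TRMs, 0.512 with monocytes and 0.308 alone, and the libraries did not overlap between co-cultures and cells alone either. The shortest coding transcripts annotated are 0.43 kb for Tcf3, 0.482 kb for Tcf4 and 0.6 kb for Tcf12. Together, the exons of all their coding transcripts total 3.477, 15.812 and 7.786 kb. Using the shortest transcripts thus raises the E-protein pool far more than the Id pool. Per kilobase of exon the E-protein pool was nearly all Tcf3. With TRMs Tcf3 had 97.9 CPM per kb, Tcf4 1.41 and Tcf12 4.99, and alone they had 65.8, 1.55 and 4.40. Monocyte co-cultures had 110, 1.30 and 4.50. Which transcripts the reads came from was not tested. Ratios above 1 on exon length and below 1 on the shortest transcripts therefore do not show which pool is the larger.

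Of the 32 E proteins and partner bHLH factors on the list, 5 had a row in the table. The factors that the E proteins pair with in muscle and neurons, among them Myod1 and Neurod1, had none. With TRMs 1 of the 5 rose and 0 fell, where 10.2% of all tested genes rose and 8.15% fell. With monocytes 2 rose and 0 fell, where 14.7% of all tested genes rose and 12.7% fell. The second was Scx, which encodes scleraxis, a bHLH factor of tendon progenitors. Scx averaged 17.9 ± 0.599 CPM with TRMs, 34.0 ± 3.85 with monocytes and 13.5 ± 1.94 alone, and was 2.52-fold higher with monocytes than alone (limma adjusted p = 0.000227). The list's median log2 difference was 0.19 with TRMs and 0.05 with monocytes, against medians near 0 (-0.002 and -0.02) over all tested genes.

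The machinery that carries the BMP signal to the Id genes comprises ligands, receptors, SMADs and extracellular inhibitors. Of 41 BMP pathway components 25 were tested. Of these, 1 rose and 1 fell with TRMs, where 10.2% of all tested genes rose and 8.15% fell. In monocyte co-cultures 1 rose and 3 fell, where 14.7% of all tested genes rose and 12.7% fell. BMP ligand RNA in the tumour cells was low: Bmp2 averaged 4.57 CPM with TRMs, 2.70 with monocytes and 4.01 alone, and Bmp4 0.393 CPM with TRMs, 0.861 with monocytes and 1.16 alone. The type I receptor gene Bmpr1a averaged 129 CPM with TRMs, 139 with monocytes and 166 alone, the type II receptor gene Bmpr2 34.3 CPM with TRMs, 34.1 with monocytes and 35.3 alone, and neither passed the test. Nor did the signal transducers: Smad1 averaged 138 CPM with TRMs, 128 with monocytes and 146 alone, Smad5 94.2 CPM with TRMs, 94.6 with monocytes and 112 alone and Smad4 249 CPM with TRMs, 251 with monocytes and 198 alone. The list's median log2 difference was -0.03 with TRMs and -0.27 with monocytes.

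Acvr2a, which encodes an activin and BMP type II receptor, was called in both co-cultures. It averaged 61.1 ± 14.7 CPM with TRMs, 50.1 ± 16.7 with monocytes and 104 ± 11.9 alone (SD, n = 3 each). It fell 1.72-fold with TRMs (limma adjusted p = 0.0331) and 2.15-fold with monocytes (limma adjusted p = 0.00379). The TRM call was lost without TRM replicate 1 (limma adjusted p = 0.111) or 2 (0.122) and without alone replicate 1 (0.054), 2 (0.0697) or 3 (0.123). Smurf1, a ubiquitin ligase that targets SMAD1 and SMAD5, averaged 272 ± 23.7 CPM with TRMs, 198 ± 32.7 with monocytes and 167 ± 50.2 alone and rose 1.67-fold with TRMs (limma adjusted p = 0.0166). That call was lost without TRM replicate 2 (limma adjusted p = 0.0733), alone replicate 1 (0.0808) or alone replicate 3 (0.0733).

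The other calls on the component list, all with monocytes, were in genes with few reads. Eng, a co-receptor best known from endothelium, had 2.65 CPM with monocytes and 0.572 alone. Bmpr1b, a type I receptor, had 0.506 CPM with monocytes and 3.26 alone, and Bmper, which encodes a secreted BMP-binding protein, had 3.19 CPM with monocytes and 8.42 alone. The Eng call (limma adjusted p = 0.0458) was lost on leaving out any library except alone replicate 2 or 3, with adjusted p from 0.0512 without monocyte replicate 3 to 0.136 without monocyte replicate 1; the others were TRM replicate 1 (0.0554), 2 (0.0642) and 3 (0.065), monocyte replicate 2 (0.0974) and alone replicate 1 (0.108). The Bmpr1b call (limma adjusted p = 0.0225) did not hold without alone replicate 1 (0.0541), 2 (0.0621) or 3 (0.0688). The Bmper call (limma adjusted p = 0.0213) was lost without monocyte replicate 1 (0.0858) or 3 (0.0577) and without alone replicate 1 (0.0687) or 2 (0.0518).

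Genes that BMP-SMAD signalling is known to induce include its own feedback inhibitors, and of 13 such feedback and target genes other than Id1, Id2 and Id3, 8 were tested. With TRMs 3 rose and 0 fell, and with monocytes 5 rose and 0 fell. Among all tested genes 10.2% rose and 8.15% fell with TRMs, and 14.7% rose and 12.7% fell with monocytes. The list's median log2 difference was 0.69 with TRMs and 1.00 with monocytes. Runx2, a transcription factor of bone formation, averaged 34.3 ± 9.40 CPM with TRMs, 33.4 ± 4.34 with monocytes and 14.9 ± 6.12 alone. It rose 2.36-fold with TRMs (limma adjusted p = 0.00685) and 2.35-fold with monocytes (0.0049), and both calls were kept without any 1 library. Gata2, a transcription factor of blood and endothelial lineages, was low, at 5.22 CPM with TRMs, 12 with monocytes and 2.05 alone, and rose 2.62-fold with TRMs (limma adjusted p = 0.016) and 5.82-fold with monocytes (0.000244). Its TRM call was lost without TRM replicate 2 (limma adjusted p = 0.0768) or 3 (0.0539) and without alone replicate 1 (0.0566) or 3 (0.065).

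Smad7, an inhibitory SMAD induced by both BMP and TGF-beta, averaged 228 ± 24.8 CPM with TRMs, 213 ± 59.9 with monocytes and 130 ± 12.5 alone (SD, n = 3 each). It rose 1.75-fold with TRMs (limma adjusted p = 0.00857) and 1.60-fold with monocytes (0.0157). The monocyte call was lost without monocyte replicate 1 (limma adjusted p = 0.0611) or 2 (0.0514) or alone replicate 2 (0.0503). Smad6, the inhibitory SMAD more specific to BMP signalling, did not pass and averaged 40.5 ± 2.79 CPM with TRMs, 44.1 ± 6.06 with monocytes and 44.9 ± 10.1 alone. Hey1, a target of Notch and BMP on the same list, averaged 4.50 CPM with TRMs, 5.90 with monocytes and 3.11 alone and did not pass. Bambi, a decoy receptor, averaged 7.62 CPM with TRMs, 9.90 with monocytes and 4.99 alone and rose 1.96-fold with monocytes (limma adjusted p = 0.0371). This was lost without monocyte replicate 2 (limma adjusted p = 0.157), alone replicate 1 (0.062), 2 (0.116) or 3 (0.0536) and TRM replicate 2 (0.0534) or 3 (0.0538). Atoh8, a bHLH factor singled out after its values were seen, averaged 7.21 CPM with TRMs, 17.9 with monocytes and 8.10 alone and rose 2.03-fold with monocytes (limma adjusted p = 0.0426). It stayed called only on leaving out TRM replicate 1 or monocyte replicate 3. Leave-outs gave a limma adjusted p of 0.0597 and 0.0546 without TRM replicate 2 and 3, 0.114 and 0.188 without monocyte replicate 1 and 2, and 0.102, 0.105 and 0.0652 without alone replicate 1, 2 and 3.

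**Figure D3:**
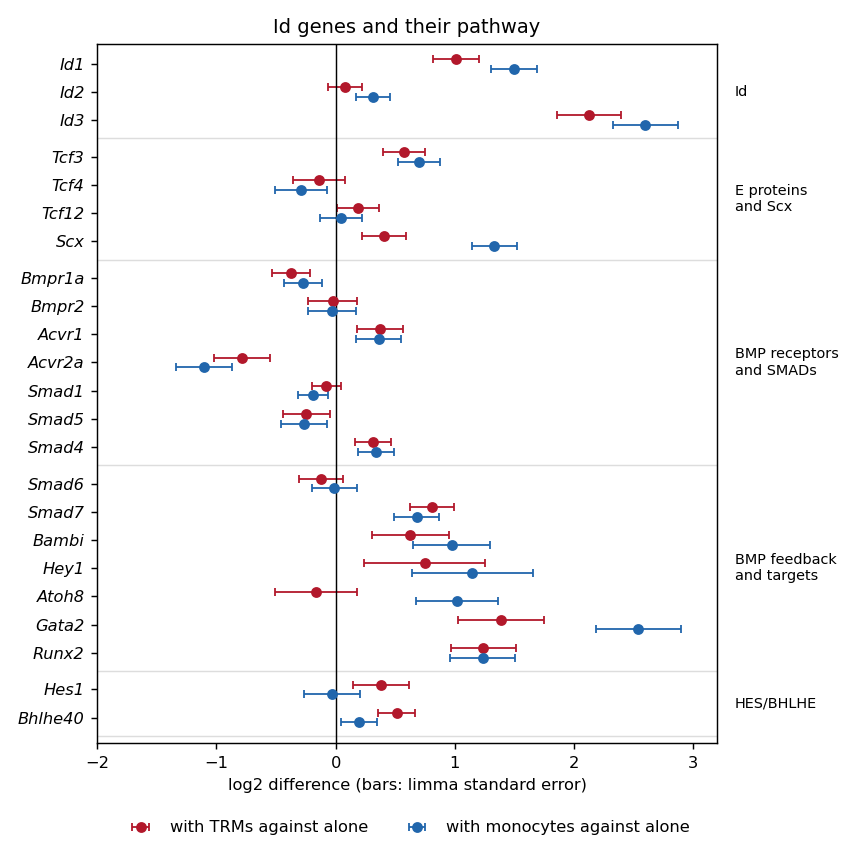
Log2 differences from tumour cells alone (horizontal axis) for the Id genes and genes of the pathway lists, in TRM co-cultures (red) and in monocyte co-cultures (blue), with error bars of 1 limma standard error. Smad1 (-0.08 with TRMs, -0.19 with monocytes) and Smad5 (-0.25, -0.27) lie to the left of 0, and Smad4 (0.32, 0.34) to the right. None of them was called. Runx2, Gata2 and Smad7 lie to the right of 0 in both co-cultures.

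TGF-beta, which acts through SMAD2 and SMAD3 and can raise or lower Id genes depending on the cell, was followed by 13 target genes, all tested. In each co-culture 4 rose and 3 fell. The shares of all tested genes were 10.2% higher and 8.15% lower with TRMs, and 14.7% higher and 12.7% lower with monocytes. Tgfb1, the ligand itself, averaged 114 ± 18.0 CPM with TRMs, 99.3 ± 34.1 with monocytes and 43.6 ± 3.47 alone, and rose 2.60-fold with TRMs (limma adjusted p = 0.000722) and 2.19-fold with monocytes (0.00181). Snai1, a repressor of epithelial genes, was low, at 4.28 CPM with TRMs, 5.47 with monocytes and 0.841 alone, and rose 5.14-fold with TRMs (limma adjusted p = 0.00263) and 6.16-fold with monocytes (0.000915). In the opposite direction, Ccn2, a matricellular protein gene, averaged 1147 ± 81.3 CPM with TRMs, 860 ± 291 with monocytes and 2196 ± 52.7 alone and fell 1.92-fold with TRMs (limma adjusted p = 0.00431) and 2.64-fold with monocytes (0.000209). Tgif1, a SMAD co-repressor, averaged 309 CPM with TRMs, 299 with monocytes and 529 alone and fell 1.72-fold with TRMs (limma adjusted p = 0.00114) and 1.77-fold with monocytes (0.000544). These genes, known to be induced by TGF-beta in other cells, thus went both ways, and the list's median log2 difference was 0.61 with TRMs and 0.21 with monocytes.

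Further calls on the TGF-beta list, in Pmepa1, Ldlrad4 and Skil, were singled out after their values were seen. Pmepa1, a feedback inhibitor of TGF-beta signalling, averaged 431 CPM with TRMs, 336 with monocytes and 249 alone and rose with TRMs (limma adjusted p = 0.0097). Its relative Ldlrad4 averaged 36.1 CPM with TRMs, 40.4 with monocytes and 23.2 alone and rose with monocytes (limma adjusted p = 0.0119). Skil, a SMAD co-repressor, averaged 291 CPM with TRMs, 275 with monocytes and 447 alone and fell with TRMs (limma adjusted p = 0.04996) and with monocytes (limma adjusted p = 0.0191). The TRM call was lost without TRM replicate 1 (limma adjusted p = 0.179) or 2 (0.117) or alone replicate 1 (0.0799), 2 (0.117) or 3 (0.134), and the monocyte call without monocyte replicate 1 (0.0757) or alone replicate 2 (0.0525) or 3 (0.0614).

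Beyond E proteins, ID proteins are reported to bind ETS factors and the retinoblastoma protein, to be protected from degradation by the deubiquitinase USP1 and to be degraded through the APC/C activator FZR1. Of 15 such partners and stability factors 14 were tested. With TRMs 4 rose and 1 fell, and with monocytes 6 rose and 1 fell, with median log2 differences of -0.08 with TRMs and 0.37 with monocytes. Among all tested genes 10.2% rose and 8.15% fell with TRMs, and 14.7% rose and 12.7% fell with monocytes. Cav1, the caveolin gene whose product is reported to bind ID1, averaged 82.1 ± 28.8 CPM with TRMs, 87.3 ± 19.1 with monocytes and 16.9 ± 7.96 alone. It rose 4.96-fold with TRMs (limma adjusted p = 0.000245) and 5.42-fold with monocytes (0.000119). The ETS-family genes went both ways: Elk3 averaged 71.5 CPM with TRMs, 81.8 with monocytes and 39.3 alone and rose 1.81-fold with TRMs (limma adjusted p = 0.0055) and 2.06-fold with monocytes (0.0011), whereas Ets2 averaged 401 CPM with TRMs, 361 with monocytes and 629 alone and fell 1.58-fold with TRMs (0.00621) and 1.75-fold with monocytes (0.00119). Ets1 averaged 209 CPM with TRMs, 270 with monocytes and 102 alone and rose 2.02-fold with TRMs (limma adjusted p = 0.021) and 2.60-fold with monocytes (0.00253). Its TRM call was lost without TRM replicate 2 (limma adjusted p = 0.107) or 3 (0.0772) or alone replicate 1 (0.0914) or 3 (0.0519). Rb1, the retinoblastoma gene, did not pass and averaged 24.8 CPM with TRMs, 21.8 with monocytes and 26.6 alone.

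Usp1 averaged 38.9 ± 4.19 CPM with TRMs, 60.4 ± 8.47 with monocytes and 42.7 ± 7.32 alone, and rose 1.42-fold with monocytes only just past the threshold (limma adjusted p = 0.0489). It was lost without TRM replicate 1 (limma adjusted p = 0.0538), 2 (0.0681) or 3 (0.0576), monocyte replicate 1 (0.129) or 2 (0.136), and alone replicate 1 (0.214) or 3 (0.0775). Fzr1 and Rbl1 were singled out after their values were seen. Fzr1 averaged 135 CPM with TRMs, 138 with monocytes and 88.0 alone and rose with TRMs (limma adjusted p = 0.0243) and with monocytes (0.0148). Its TRM call was lost without TRM replicate 1 (limma adjusted p = 0.0852) or 2 (0.0818) or alone replicate 2 (0.0816) or 3 (0.0587), and its monocyte call without monocyte replicate 1 (0.0555) or alone replicate 2 (0.054). Rbl1, which encodes the retinoblastoma relative p107, averaged 22.1 CPM with TRMs, 25.7 with monocytes and 16.1 alone and rose with monocytes (limma adjusted p = 0.0455). It was lost on leaving out any library except TRM replicate 1 or 3, with adjusted p of 0.0661 without TRM replicate 2, 0.0706, 0.134 and 0.0552 without monocyte replicate 1, 2 and 3, and 0.0782, 0.134 and 0.0745 without alone replicate 1, 2 and 3.

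HES, HEY and BHLHE factors form the other large group of helix-loop-helix repressors, and unlike ID proteins they bind DNA. Of 11 on the list 5 were tested. With TRMs 1 rose and 0 fell, where 10.2% of all tested genes rose and 8.15% fell. The shares of all tested genes with monocytes were 14.7% higher and 12.7% lower. With monocytes limma called 0 of the 5, 0 had an unadjusted p under 0.05, and edgeR, limma-voom and DESeq2 each called 0. The gene that rose was Bhlhe40, a stress- and clock-linked repressor, at 686 ± 96.8 CPM with TRMs, 548 ± 64.5 with monocytes and 480 ± 63.4 alone (1.43-fold with TRMs, limma adjusted p = 0.0325). It was lost without TRM replicate 2 (limma adjusted p = 0.145) or 3 (0.101) or alone replicate 1 (0.109) or 2 (0.0979). Hes1, the Notch target, was abundant at 1195 ± 240 CPM with TRMs, 909 ± 235 with monocytes and 931 ± 263 alone and did not pass.

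A further list holds cell-cycle inhibitors and other genes reported to be under the control of E proteins or ID proteins, in either direction, and 9 of its 10 genes were tested. With TRMs 2 rose and 0 fell, and with monocytes 1 rose and 4 fell, with median log2 differences of -0.14 with TRMs and -0.73 with monocytes. Among all tested genes 10.2% rose and 8.15% fell with TRMs, and 14.7% rose and 12.7% fell with monocytes. Cdkn2c, the p18 inhibitor gene, averaged 18.9 ± 2.26 CPM with TRMs, 30.1 ± 11.4 with monocytes and 9.52 ± 0.116 alone and rose 1.98-fold with TRMs (limma adjusted p = 0.0166) and 3.01-fold with monocytes (0.000597). Its TRM call was lost without TRM replicate 1 (limma adjusted p = 0.0588). Cdkn1a, the p21 gene that E47 can activate, averaged 128 ± 20.7 CPM with TRMs, 81.2 ± 5.74 with monocytes and 82.7 ± 27.3 alone and rose 1.58-fold with TRMs (limma adjusted p = 0.0348). This call was lost without TRM replicate 1 (limma adjusted p = 0.117) or 2 (0.111) or alone replicate 1 (0.149) or 3 (0.141).

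The genes of this list that fell with monocytes included Cdh1, the E-cadherin gene that E47 can repress. Cdh1 averaged 1397 ± 100 CPM with TRMs, 869 ± 258 with monocytes and 1650 ± 97.6 alone, and fell 1.95-fold with monocytes (limma adjusted p = 0.00173). Cdkn2b, the p15 gene, averaged 61.5 CPM with TRMs, 39.5 with monocytes and 72.7 alone and fell 1.87-fold (limma adjusted p = 0.00967). Thbs1, an anti-angiogenic matrix gene reported to be repressed by ID1, averaged 4295 ± 1488 CPM with TRMs, 3449 ± 907 with monocytes and 6205 ± 1137 alone and fell 1.83-fold (limma adjusted p = 0.0343). It was lost without monocyte replicate 1 (limma adjusted p = 0.129) or alone replicate 1 (0.0566), 2 (0.0506) or 3 (0.132). Gadd45a, a stress-response gene, averaged 92.2 CPM with TRMs, 62.8 with monocytes and 101 alone and fell 1.66-fold (limma adjusted p = 0.0242), a call that was lost without monocyte replicate 1 (0.0778) or alone replicate 2 (0.064) or 3 (0.0901).

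The same genes were also compared between the co-cultures. Over the 106 genes tested on the 8 pathway lists, limma called 0 between TRM and monocyte co-cultures, and 20 had an unadjusted p under 0.05. On these genes edgeR called 1, limma-voom 1 and DESeq2 5. Among all 12326 tested genes limma called 49 in this comparison, a share of 0.398%. Over all genes edgeR called 44, limma-voom 86 and DESeq2 336, so each count on the lists has its own background. Scx came closest, at 17.9 CPM with TRMs and 34.0 CPM with monocytes (limma adjusted p = 0.0519).

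By the distance between centred profiles over the 9 libraries, the gene closest to Id3 was Vim. It encodes vimentin, an intermediate filament protein of mesenchymal cells. The centred profiles of Id3 and Vim differed by a root mean square of 0.084 on the log2 scale. Vim had 648, 1012 and 944 CPM with TRMs, 1397, 1418 and 928 CPM with monocytes and 135, 278 and 216 CPM alone. It was lowest in the same library as Id3, alone replicate 1, and like Id3 it was lower in monocyte replicate 3 than in the other monocyte libraries. Next came Mcub (0.180), a subunit of the mitochondrial calcium uniporter, Col18a1 (0.248), a basement-membrane collagen, Gatm (0.249), a creatine synthesis enzyme, and Axl (0.253), a receptor tyrosine kinase. With TRMs their fold changes over cells alone ran from 3.40 for Gatm to 4.24 for Vim, and with monocytes from 4.51 for Gatm to 6.37 for Mcub. Folds near those of Id3 follow from choosing the genes by profile and are no separate result.

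**Figure D4:**
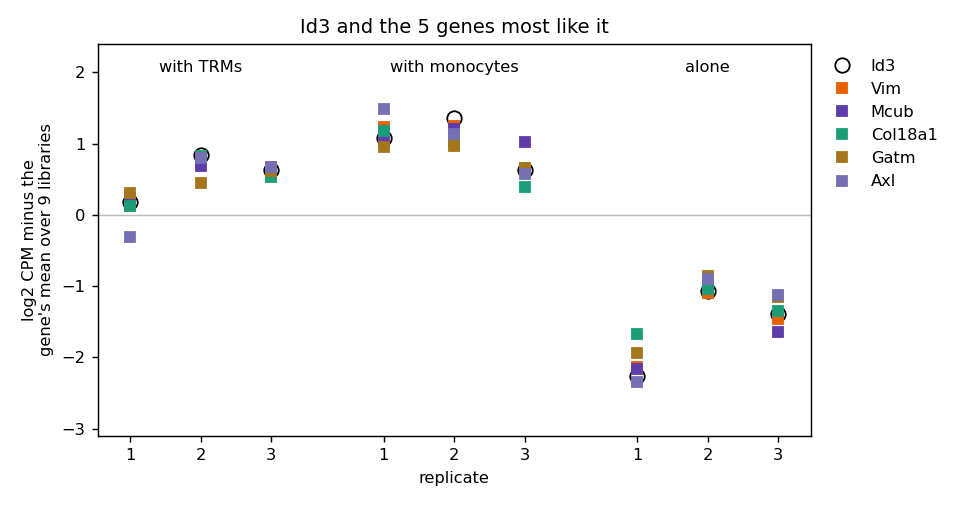
Centred log2 level (vertical axis) of Id3 and of the 5 genes with the closest profiles in each of the 9 libraries, in the order TRM co-culture, monocyte co-culture, alone. Open circles are Id3 and squares the other genes: the points of Id3 and Vim nearly coincide (root mean square difference 0.084). All 6 genes are lowest in the 3 libraries of cells alone, which follows from choosing them by profile.

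The genes closest to Id1 were Bub1b (0.150) and Shcbp1 (0.170), both linked to mitosis, then Rplp0 (0.183), a ribosomal protein gene, Pkn3 (0.186), a kinase, and Tuba1b (0.186), an alpha-tubulin. Bub1b averaged 65.2 CPM with TRMs, 98.9 with monocytes and 33.3 alone, in the same order of groups as Id1. The genes closest to Id2, whose profile was nearly flat, were Pole3, Bfar, Nom1, Tada1 and Parl, at distances from 0.088 to 0.098. No gene was among the 5 closest of more than 1 Id gene.

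Id genes also respond to growth factors in the manner of immediate early genes, and the calls on that list were all lower. Of its 27 genes, all tested, 0 rose and 6 fell with TRMs, and 0 rose and 14 fell with monocytes, with median log2 differences of -0.40 with TRMs and -0.58 with monocytes. Among all tested genes 10.2% rose and 8.15% fell with TRMs, and 14.7% rose and 12.7% fell with monocytes. The count with TRMs was 3 without TRM replicate 2, and the count with monocytes was 8 without alone replicate 3. Nr4a1, an orphan nuclear receptor gene, averaged 484 ± 48.2 CPM with TRMs, 504 ± 117 with monocytes and 1371 ± 207 alone, and fell 2.82-fold with TRMs (limma adjusted p = 0.000116) and 2.76-fold with monocytes (9.32e-05). Btg2, an anti-proliferative gene, averaged 1375 CPM with TRMs, 1156 with monocytes and 2818 alone and fell 2.03-fold with TRMs (limma adjusted p = 0.00362) and 2.45-fold with monocytes (0.000515). Egr1, a factor that can induce Id3 in thymocytes, was abundant but did not pass, at 5592 ± 1618 CPM with TRMs, 4441 ± 324 with monocytes and 4759 ± 799 alone. The summed level of the list was 39956 to 44973 CPM with TRMs, 32450 to 37535 with monocytes and 48134 to 60871 alone. Immediate early RNA also responds to dissociation and sorting, and its part in the Id values was not tested.

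In the RefSeq promoter table (GRCm38.p6), Id3 and Id2 had an entry. The 250 bases before each start were searched on both strands for 8 motifs, and 30 bases around a SMAD-type match of each gene are shown, with the match in capitals. GTCTG is the core of the element that SMAD3 and SMAD4 bind, and GGCGCC is the GC-rich element through which BMP-activated SMADs act on Id1.
Id3, chr4:136143742-136143771, plus strand: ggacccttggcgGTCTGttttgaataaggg
Id2, chr12:25096306-25096335, minus strand: tcaggccccctgGGCGCCcagcgcacactg

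The GTCTG shown lies 68 bases before the Id3 start of the RefSeq table. That start and the one of Id2 lie inside the GENCODE gene spans given above, so both windows are within the GENCODE genes. The window of Id3 held 2 matches to GTCTG and that of Id2 0, and 42.2% of 32851 promoters hold it. For GGCGCC, Id3 had 0 and Id2 1, against 9.59% of promoters. The Sp1-type box GGGCGG occurred 2 times in Id3, at overlapping positions, and 1 time in Id2 (32.7% of promoters), and the box CCAAT 0 times in Id3 and 3 times in Id2 (33.8%). An E-box, CANNTG, was present in Id2 (1 match) and not in Id3 (66.2% of promoters). The motif TGACGT (6.47% of promoters) matched neither gene, nor did ACGTG (16.6%) or TATAAA (12.4%). These are matches of letters and say nothing of what binds there.

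The sorted cells carried the RNA of an epithelial tumour line, and 8 of 10 epithelial markers were tested. Their summed level was 15234 to 19092 CPM with TRMs, 10431 to 16404 with monocytes and 15159 to 16976 alone, and Nkx2-1 and Sftpc had no row in the table used here. With TRMs Cldn4 fell (limma adjusted p = 0.0477), a call lost without TRM replicate 2 (0.164) or 3 (0.188), monocyte replicate 2 (0.0619) or alone replicate 1 (0.167) or 3 (0.125). With monocytes Cdh1, Cldn4 and Cldn7, genes of epithelial junctions, fell. Of the 8 epithelial markers, 0 rose and 1 fell with TRMs, and 0 rose and 3 fell with monocytes. Among all tested genes 10.2% rose and 8.15% fell with TRMs, and 14.7% rose and 12.7% fell with monocytes. RNA of the added myeloid cells was looked for in the same libraries as the Id genes. Of 17 pan-myeloid markers 9 had a row, and Tyrobp, Fcer1g, Adgre1, C1qa, C1qb, C1qc, Aif1 and Cd52 had none. The 9 summed to 117 to 281 CPM with TRMs, 119 to 205 with monocytes and 142 to 230 alone. With TRMs limma called 0 of them higher or lower. Of these, 1 had an unadjusted p under 0.05, edgeR and limma-voom called 0 and DESeq2 1. With monocytes limma called 0 of the 9 higher and 1 lower, beside the same shares of all tested genes. Ptprc, the CD45 gene, averaged 1.95 CPM with TRMs, 0.241 with monocytes and 1.93 alone, and its fall with monocytes (limma adjusted p = 0.0361) was lost without TRM replicate 3 (0.0521), monocyte replicate 1 (0.0617) or 3 (0.0801) or alone replicate 1 (0.138), 2 (0.0712) or 3 (0.0612).

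Of 15 alveolar macrophage markers 11 had a row, and Marco, Ear1, Ear2 and Car4 had none. They summed to 1113 to 1163 CPM with TRMs, 1126 to 1219 with monocytes and 848 to 969 alone, most of it from Cd9, a widely expressed tetraspanin, at 863 CPM with TRMs, 900 with monocytes and 657 alone. In each co-culture 3 rose (Krt79, Cd9 and Mrc1), while Plet1 fell with TRMs and Plet1, Chil3, Abcg1 and Siglecf fell with monocytes. The shares of all tested genes were 10.2% higher and 8.15% lower with TRMs, and 14.7% higher and 12.7% lower with monocytes. The TRM call of Cd9 (limma adjusted p = 0.0433) was lost without TRM replicate 1 (0.0885), 2 (0.131) or 3 (0.0902), monocyte replicate 2 (0.0562) or alone replicate 1 (0.112) or 3 (0.184), and its monocyte call (0.0162) without alone replicate 1 (0.0528) or 3 (0.087). The monocyte call of Krt79 (limma adjusted p = 0.0355) was lost without monocyte replicate 1 (0.0558) or 3 (0.115) or alone replicate 2 (0.129) or 3 (0.076). That of Siglecf (limma adjusted p = 0.0413) was lost without TRM replicate 2 (0.0535), monocyte replicate 1 (0.085) or alone replicate 1 (0.0896), 2 (0.11) or 3 (0.164). Of 13 monocyte markers 6 had a row, and Ly6c2, Cx3cr1, Ms4a4c, Csf3r, S100a8 and S100a9 were among those with none. They summed to 3149 to 6076 CPM with TRMs, 3343 to 3395 with monocytes and 2568 to 3572 alone, nearly all of it from Fn1, the fibronectin gene, which is also on the TGF-beta list and averaged 4843 CPM with TRMs, 3321 with monocytes and 2897 alone. F13a1 rose in both co-cultures, and Plac8 fell with monocytes (limma adjusted p = 0.0212), a call lost without monocyte replicate 1 (0.0905) or 2 (0.0901) or alone replicate 1 (0.0702) or 3 (0.052). Mrc1, the mannose receptor gene, averaged 32.9 CPM with TRMs, 39.2 with monocytes and 5.12 alone and F13a1, the coagulation factor XIII gene, 13.4 CPM with TRMs, 13.4 with monocytes and 0.960 alone, so both were higher in the co-cultures, as Id3 was. The part of myeloid RNA in the Id values was not tested. Endothelial markers (3 of 10 with a row) and fibroblast markers (4 of 10) summed to at most 10.8 and 11.4 CPM in any library, and 0 of them passed by limma, edgeR, limma-voom or DESeq2 in any comparison or had an unadjusted p under 0.05.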

How the data were processed

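RNA of sorted tumour cells was sequenced from SMART-Seq v4 cDNA, per the labels' protocols. Tools named in the submitters' processing notes are STAR 2.5 and edgeR, with build mm10; no source used here gives the counter or annotation. The deposited normalised signal is, per its values, (whole reads + 0.5) scaled to CPM by a TMM-adjusted library size: 111051 of 111051 values (100%) gave whole reads within 1e-06 of a read. The authors' deposited tables of comparisons hold log2 fold changes, a test score, p-values and FDR per the file headers, of which only the fold changes are printed. A filter (edgeR's filterByExpr, minimum count 10, minimum total 15) left 12326 genes. Log2 values were tested with limma 3.58.1 (R 4.3.3) with a mean-dependent variance prior, over 9 libraries with 3 group means and 6 residual degrees of freedom; calls are two-sided at a Benjamini-Hochberg adjusted p under 0.05 over all tested genes. The code was tested on simulated data for the TRM comparison. It called 58 of 100 genes changed 2-fold, 88 of 100 changed 4-fold and 9 of 12126 unchanged genes. A gene that did not pass may thus still differ by 2-fold. Alternatives used edgeR 4.0.16, limma-voom, DESeq2 1.42.0, other scalings and filters, and leaving out each library. Exon lengths, over protein-coding transcripts only, and positions come from GENCODE M21 (12236 of 12339 genes, 99.2%, matched 1 gene), and promoters from RefSeq.

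The members, the 8 pathway lists and the 6 marker lists were chosen with earlier results of these data known. Besides the members, the text names up to 4 called genes per list and comparison by smallest p, a set of pathway genes named whatever their value, the 5 genes with the closest profile to each Id gene, and genes said to be singled out later. No protein sequence was used. Some genes of these lists are counted but not reported here by name.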

Additional observations from a re-analysis of the deposited data

How the results depend on the processing

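No result changed direction with its call, and the log2 differences of Id1 and Id3 from cells alone kept their sign in every alternative: 0.89 to 1.21 (Id1, TRM), 1.39 to 1.70 (Id1, monocyte), 1.79 to 2.38 (Id3, TRM) and 2.26 to 2.85 (Id3, monocyte). Genes called between TRM and monocyte co-cultures numbered 86 by limma-voom, 336 by DESeq2, 75 on log2(value + 1) and 79 with the replicate block, against 49. On the lists, edgeR called 1 cell-cycle gene with TRMs, 1 BMP component with monocytes and 1 E-protein partner between co-cultures. Voom called 1 such partner. DESeq2 called 10 immediate early genes with TRMs and, between co-cultures, 2 BMP-SMAD targets, 1 E-protein partner, 1 other ID partner and 1 cell-cycle gene. Library totals gave 0 E-protein partners, 0 HES genes, 1 cell-cycle gene and 10 immediate early genes with TRMs, and 1 E-protein partner between co-cultures, as did log2(value + 1). With only the 2 groups compared, 3 BMP-SMAD targets rose with monocytes. Calls on genes named in the text were ended by edgeR for Cdkn1a, Cldn4 and Skil with TRMs and Bmper, Bmpr1b, Eng, Plac8, Ptprc and Usp1 with monocytes (adjusted p 0.0507 to 0.122). Voom ended those of Gata2 with TRMs and Atoh8, Chil3, Eng and Ptprc with monocytes (0.0527 to 0.106). Library totals ended those of Bhlhe40, Cd9, Cdkn1a, Fzr1 and Tcf3 with TRMs and Atoh8, Rbl1 and Usp1 with monocytes (0.0511 to 0.107). The 2-group fit ended those of Atoh8, Bambi, Eng, Krt79, Ptprc, Siglecf and Usp1 with monocytes (0.0508 to 0.0881), and log2(value + 1) that of Ptprc with monocytes (0.0785). Under the replicate block Usp1 was not called with monocytes (0.0563), and Thbs1 was called lower with TRMs (0.0449). The shortest transcripts, chosen after seeing the data, gave Id3 shares of 51.54%, 54.42% and 23.12% with TRMs, with monocytes and alone, and Id to E-protein ratios of 0.4144, 0.512 and 0.3079 in the same groups.

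Leaving out 1 library gave 1217 to 2594 genes called with TRMs, with 1217 without TRM replicate 2, 1442 without alone replicate 1 and 1391 without alone replicate 3. With monocytes it gave 2240 (without alone replicate 3) to 3530, and 0 (without TRM replicate 2) to 134 (without monocyte replicate 3) between co-cultures. With TRMs the list counts ran from 0 to 3 for BMP components, 0 to 2 for cell-cycle genes, 0 to 1 for E-protein partners, 0 to 1 for HES genes, 3 to 8 for immediate early genes and 3 to 5 for other ID partners. With monocytes they ran from 2 to 5 for BMP components, 2 to 5 for BMP-SMAD targets, 3 to 6 for cell-cycle genes, 8 to 18 for immediate early genes and 4 to 7 for other ID partners. Between co-cultures they ran from 0 to 1 for BMP-SMAD targets, cell-cycle genes, E-protein partners and TGF-beta targets. The cause of these shifts was not tested.

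Deviations of same-numbered libraries correlated at -0.02 to 0.43 (median 0.13) and those of other pairs at -0.40 to 0.26 (median -0.07). Not every same-numbered pair exceeded 0.1, and TRM replicate 3 correlated best with alone replicate 2, so the numbers were not taken as pairs. These correlations cannot show that the replicates were unpaired. Adding the replicate number as a block gave 2392 genes called with TRMs, 3511 with monocytes and 79 between co-cultures. Without the block the counts were 2262, 3366 and 49. With 3 libraries a group and 6 residual degrees of freedom, small differences such as those of Id2 are not resolved, and genes under a few CPM have wide errors.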
